A study of Mus musculus with 96 samples.

Results

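LCS organoids, liver cancer organoids grown as 3D stem cell cultures, were set against PPTR primary tumours dissected from mouse liver, to see which parts of the tumour's expression programme were present in culture and which were not. The comparison took every library whose label names one of the organoid lines LCS1 to LCS5 or a dissected PPTR primary tumour, 30 of the 96 libraries of the series. LCS1, LCS2, LCS3 and LCS5 had 4 libraries each and LCS4 had 3, and the 19 libraries were summed per line, so that 5 lines faced 11 tumour libraries. Neither group was treated, and the labels name no genotype, strain or age for either and do not expand LCS or PPTR. The same protocol of total RNA from a Qiagen micro kit and stranded libraries is given for both. The title of the series speaks of organoids derived from primary tumours, but no label ties a line to a tumour, so the lines and tumours are not pairs. The labels also do not say which libraries came from separate cultures or animals, so a p-value speaks of the scatter between these lines and libraries, which may in part be technical.

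A primary liver tumour is a mixture of malignant epithelial cells with the vessels, fibroblasts, macrophages, lymphocytes and blood of the organ around it, whereas an organoid culture of the kind labelled here is grown from epithelial stem or progenitor cells in medium. Hepatocytes make most plasma proteins, bile acids and urea and detoxify drugs, under a set of transcription factors that includes the HNF4, HNF1, FOXA and C/EBP families. Cholangiocytes, which line the bile ducts, carry keratins 7 and 19, EpCAM and SOX9, and cultured liver progenitors share many of these markers.

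Gene counts were 17.6 to 58.2 M per library in LCS organoids, 16.3 to 57.6 M in PPTR tumours, 22.03 to 32.9 M in normal organoids and 9.48 to 29.4 M in normal livers, the last 2 used beside some results. Reads in no annotated gene made up 22.6% to 47.7% of the total in the organoids (median 40.0%) and 9.78% to 45.7% in the tumours (median 13.7%), and features in ribosomal repeats took 0.148% to 11.6% of gene counts in the organoids and 0.210% to 18.3% in the tumours. Between libraries of a line the log2 ratio of expression had a median SD of 0.712 (27 pairs), below the 1.17 between libraries of different lines (144 pairs), and between tumours it was 0.861 (55 pairs). LCS1, LCS2 and PPTR tumours 1 to 8 carry identifiers with the letters LQZ, and LCS3 to LCS5 and PPTR tumours 9 to 11 do not. What the letters stand for is not stated. Counts of list members differed by over 1.5 times from those over all libraries in 16 cases among LQZ libraries alone and in 29 among the rest, and differences of 4 or more members are printed beside the lists concerned.

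Libraries of a line also differed for single genes. Of 990 values of a named gene in a line, 379 were over 1.5 times the value without the highest library of that line. Among named genes with every line above every tumour (59) or below (95), every library of the lines did so too for 40 and 78. When each of the 19 libraries was left out in turn, an alternative chosen after seeing the data, 196 of 198 named genes kept their call against the tumours. Library values are given below for Fgb, Ltf, Mmp7, Fosb, Muc5b and Ephb2, where the place of a line turned on 1 library.

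Of 16931 genes tested with edgeR's quasi-likelihood test, 5952 (35.2%) were higher and 5817 (34.4%) lower in LCS organoids than in PPTR tumours at an adjusted p under 0.05, and 3156 (18.6%) and 3497 (20.7%) passed a test against a 2-fold change. Every line lay above every tumour for 3067 genes (18.1%) and below every tumour for 3311 (19.6%). In all 69.5% of genes passed in either direction, so each list of genes below is read against these shares. A list with counts near 35.2% higher and 34.4% lower gives no result about its members as a group. The scaling sets the median gene to a log2 fold change of 0.00, and directions are relative to it. Had the libraries been scaled to equal expression of the epithelial markers instead, the median gene would stand at -4.27, with 254 genes higher and 15641 lower, so that most of the rises below would read as falls. Measured from the median gene under that scaling, 3462 were higher and 3386 lower. In bulk RNA, fewer cells of a type and less RNA per cell cannot be told apart. Levels are given in CPM, counts scaled to a common library size adjusted by TMM, fold changes are log2 values with their standard error, and "rose" and "fell" are used of genes that passed the adjusted p of 0.05.

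**Figure D1:**
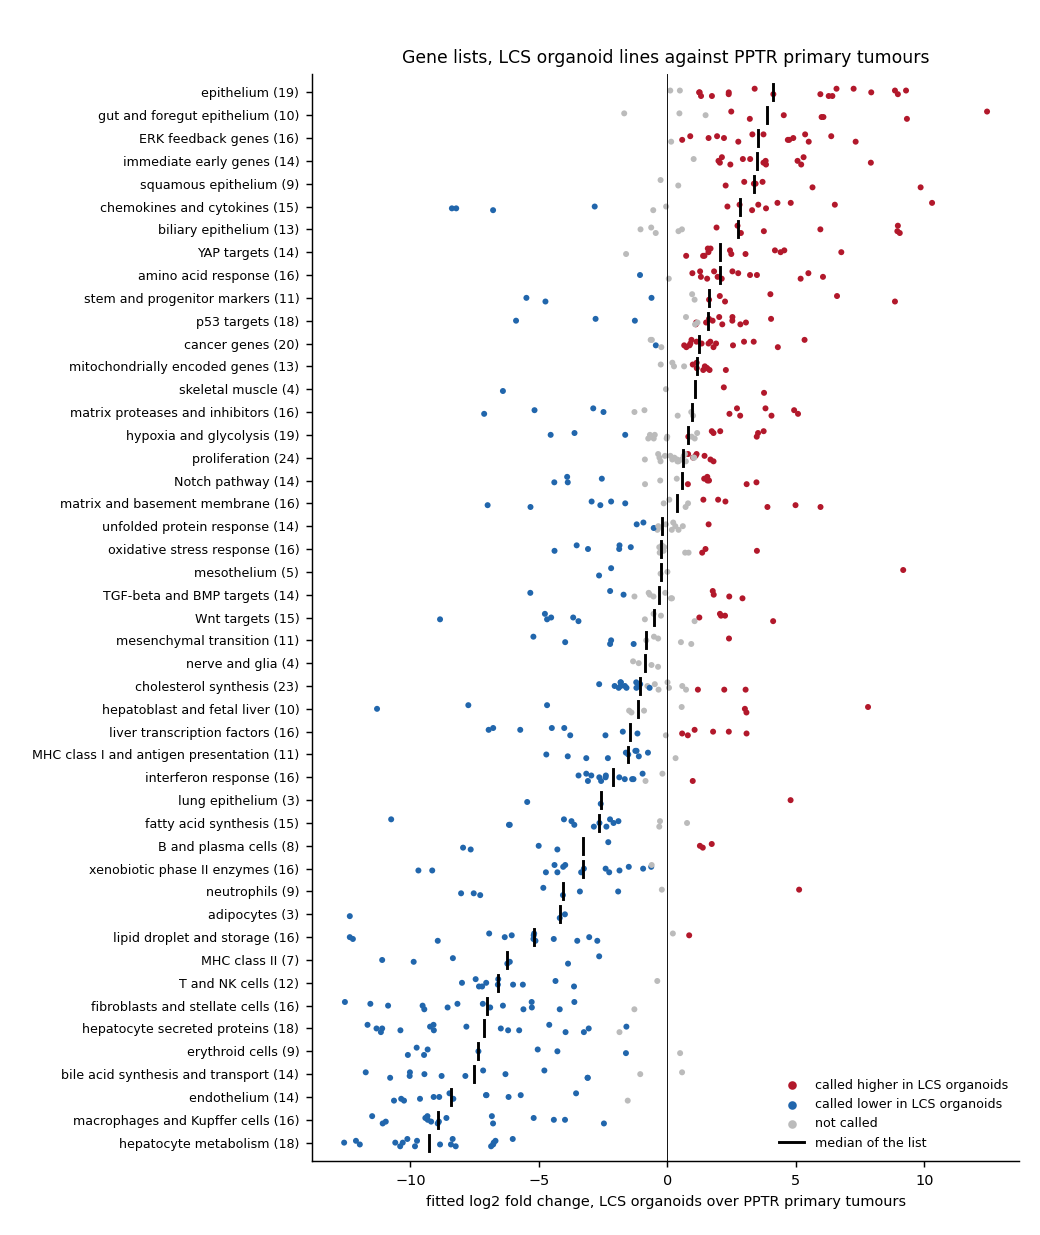
Fitted log2 fold change of LCS organoids over PPTR tumours for the members of each gene list with at least 3 genes tested; each dot is a gene, red where higher, blue where lower and grey where neither was called, and the black bar is the median of the list. Lists are ordered by their median, with epithelium at 4.12 and immediate early genes, ERK feedback genes and gut and foregut epithelium on the high side, and hepatocyte metabolism at -9.30 with macrophages and endothelium on the low side.

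The label of an epithelial culture held. Of 19 epithelial markers, 17 rose and none fell, with a median log2 fold change of 4.12, and their summed level was 5426 to 8013 CPM in the 5 lines against 742 to 4138 CPM in the tumours (median 1358). Cdh1, the adhesion molecule E-cadherin, had 1168, 785, 919, 1270 and 1209 CPM in LCS1 to LCS5, against 10.3, 51.0 and 172 CPM in the lowest, median and highest tumour. The groups did not overlap, and Cdh1 rose by 4.12 ± 0.46 (adjusted p = 7.38e-07). Epcam, another adhesion molecule, had 148, 179, 99.7, 284 and 342 CPM in the lines and 0.381 to 10.4 CPM in the tumours and rose by 5.95 ± 0.66. The keratins Krt8 and Krt18, which hepatocytes also make, rose by only 1.24 ± 0.36 and 1.31 ± 0.39, with overlapping groups. The splicing factor gene Esrp2 (0.49 ± 0.29, adjusted p = 0.139) and the protease gene Prss8 (0.11 ± 0.40, adjusted p = 0.816) did not pass.

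Of 13 bile duct markers 8 rose and none fell (median 2.73), while 2 fell among LQZ libraries alone. Their summed level was 4351 to 6535 CPM in the lines and 649 to 10890 CPM in the tumours. Unlike the epithelial sums, these overlapped, and the highest tumour lay above every line. Krt7, a duct keratin, had 592, 957, 438, 655 and 551 CPM in LCS1 to LCS5, against 0.119, 0.57 and 4.06 CPM in the lowest, median and highest tumour, a rise of 9.04 ± 0.67 (adjusted p = 8.71e-09). Krt19 had 1150, 979, 438, 266 and 445 CPM in the lines and 0 to 6.84 CPM in the tumours. For both keratins each line stood far above each tumour. The transcription factor genes Sox9 and Sox4 rose by 2.86 ± 0.52 and 2.73 ± 0.27, and the bicarbonate exchanger gene Slc4a2 by 1.91 ± 0.13, all 3 without overlap. Spp1, which encodes osteopontin and is made by ducts and by many tumours, was not called. It had 3050, 1948, 4866, 3362 and 2128 CPM in the lines and 430.3, 1922 and 10640 CPM in the lowest, median and highest tumour, and the groups overlapped (0.43 ± 0.60, adjusted p = 0.533).

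Markers of macrophages, endothelium, fibroblasts, T and NK cells and red cells were low in culture, while those of some other cell types were not. All 16 macrophage and Kupffer cell markers fell, and their summed level was 23.02, 18.9, 8.85, 13.8 and 40.7 CPM in LCS1 to LCS5 against 432 to 2749 CPM in the tumours. Of the endothelial markers 13 of 14 fell, with sums of 5.26 to 76.9 CPM in the lines and 399 to 2480 CPM in the tumours. Fibroblast and stellate cell markers fell in 15 of 16 genes, with sums of 3.35 to 61.6 against 372 to 1888 CPM. T and NK cell markers fell in 11 of 12 genes, or 7 among libraries without LQZ identifiers, with sums of 2.62 to 3.05 against 4.68 to 76.7 CPM. Erythroid genes fell in 8 of 9. For the sums of macrophage, endothelial, fibroblast and T and NK cell markers every line lay below every tumour. B cell markers gave 3 higher and 5 lower of 8, with sums of 333 to 977 CPM in the lines and 157 to 445 CPM in the tumours. Neutrophil markers gave 1 higher and 7 lower of 9, or 3 lower among LQZ libraries and 2 among the rest, with sums of 7.06 to 576 against 8.51 to 318 CPM. The highest line lay above the highest tumour for both sums. Of the small lists for neighbouring tissues, mesothelium had 1 higher and 2 lower of 5, but every line lay above every tumour for its sum, at 232 to 1198 against 1.62 to 23.5 CPM. The counts were 3 lower of 3 for adipocytes, 2 higher and 1 lower of 4 for muscle, 1 lower of 1 for pancreatic acini, 1 higher and 2 lower of 3 for lung (sums of 1.9 to 200.1 CPM in the lines and a median of 5.79 CPM in the tumours), and none of 4 in either direction for nerve. Single genes made up most of the highest sums for mesothelium, neutrophils and lung. By library, Msln had 1091 to 1394 CPM in LCS3, where the mesothelium sum was 1198 CPM. In LCS5, Ltf had 465.6 to 614.4 CPM, beside a neutrophil sum of 576 CPM. Sftpd there had 89.8 to 307.9 CPM, beside a lung sum of 200.1 CPM. A sum carried by 1 gene does not show that such cells were present.

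Cdh5, the cadherin of endothelial junctions, had 0.0232, 0.122, 0.0571, 0.035 and 0 CPM in LCS1 to LCS5, against 34.8, 40.5 and 256 CPM in the lowest, median and highest tumour, and fell by 10.25 ± 0.88 (adjusted p = 4.28e-08). Col3a1, a fibrillar collagen of fibroblasts, had 0.0528 to 0.187 CPM in the lines and 99.5 to 727 CPM in the tumours, and Col1a2 0.0163 to 0.105 against 44.6 to 269 CPM. Both collagens were close to 0 in every line. The Kupffer cell lectin gene Clec4f had 0 to 0.106 CPM in the lines and 0.219 to 293 CPM in the tumours. Gzma, a protease of cytotoxic lymphocytes, had 1 count over all lines, and the pooled level in tumours was 314.2 times that in lines, with a 95% counting interval of 55.76 to 12470. LCS5 carried more of some blood and macrophage genes than the other lines, with 14.03 CPM of the lysozyme gene Lyz2 against 0.0305 to 0.261 CPM in LCS1 to LCS4, and still lay below the tumours at 67.7 to 790.4 CPM.

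**Figure D2:**
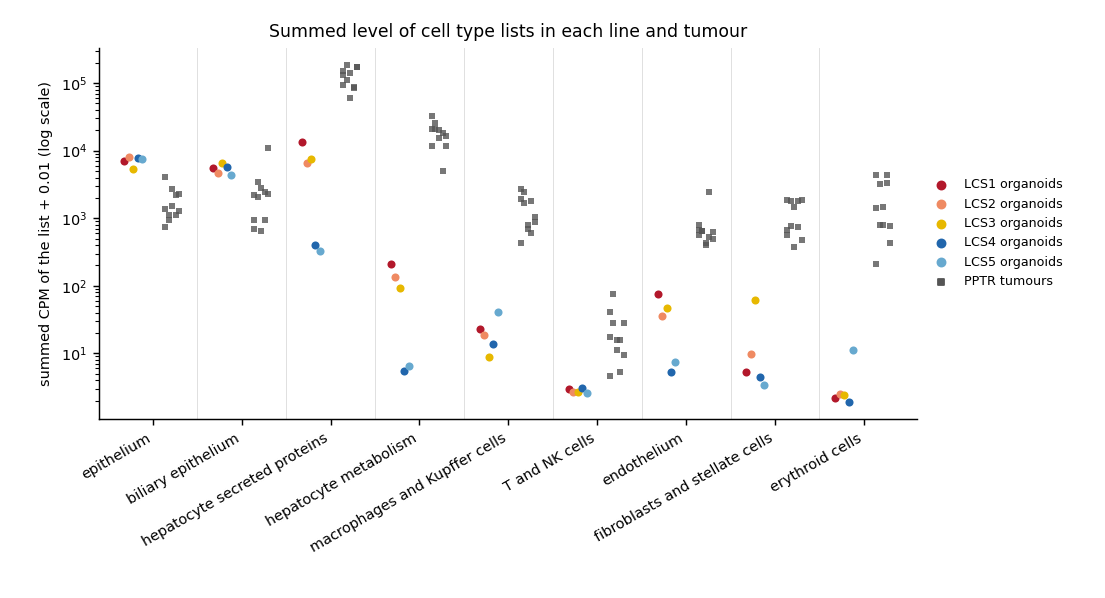
Summed level of the members of 9 cell type lists, in CPM on a log axis, with the 5 LCS lines as coloured dots on the left and the 11 PPTR tumours as grey squares on the right of each list. Epithelial sums of the lines (5426 to 8013 CPM) lie above all tumours, while those of macrophages, endothelium and fibroblasts lie below all tumours.

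Hepatocyte metabolism had the lowest median of the 48 lists. Of 18 secreted proteins of hepatocytes 17 fell (median -7.15), 16 of them with every line below every tumour. Their sum was 13200, 6488, 7510, 399.9 and 330.4 CPM in LCS1 to LCS5, against 60800 to 186900 CPM in the tumours (median 130400). All 18 genes of hepatocyte metabolism fell with no overlap (median -9.30), with sums of 210.5, 135, 93.4, 5.45 and 6.59 CPM in the lines and 5032 to 32470 CPM in the tumours. In normal liver the median sums were 141200 CPM for the secreted proteins and 35610 CPM for metabolism. Normal liver organoids had 67.95 to 218.6 CPM and 2.69 to 16.3 CPM, so low sums in culture are not particular to lines with a tumour label. LCS1 to LCS3 lay above the normal organoids for both sums, and LCS4 and LCS5 lay within their range for metabolism. Whether the dissected tumours held adjoining liver is not stated, and its part in these falls was not tested.

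Alb, the main plasma protein albumin, had 220.2, 21.3, 309, 1.47 and 2.67 CPM in LCS1 to LCS5, against 23560, 66730 and 102700 CPM in the lowest, median and highest tumour. Each line lay below each tumour, LCS4 and LCS5 furthest, and Alb fell by 9.09 ± 1.43 (adjusted p = 2.66e-05). Fgb, a fibrinogen chain of the clotting system, had 240.5, 41.9, 917, 9.55 and 1.39 CPM in the lines and 1816 to 6544 CPM in the tumours and fell by 3.96 ± 1.07 (adjusted p = 0.00343), a call that was lost among libraries without LQZ identifiers, at -3.76. LCS3 stood at 917 CPM of Fgb through its library 4, at 3412 CPM and within the range of the tumours, and its value was 226 CPM without it, beside 240.5 CPM in LCS1. Leaving out any 1 library kept the call of Fgb (-5.19 to -3.64). Apob, the backbone of very low density lipoproteins, was the 1 gene of the list that was not called. It had 10480, 5716, 4281, 46.5 and 138 CPM in LCS1 to LCS5 and 7410 to 24950 CPM in the tumours (-1.86 ± 0.84, adjusted p = 0.056), so that LCS1 lay within the range of the tumours and LCS4 and LCS5 far below it. Among the enzymes, Cps1, which opens the urea cycle, had 0.0233 to 4.32 CPM in the lines and 233 to 2637 CPM in the tumours, and Cyp3a11, a drug oxidising cytochrome, 0 to 1.19 against 439 to 6212 CPM.

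The promoters of Alb and Fgb are shown as those of secreted proteins that fell in the lines. The 250 bases before the start of Alb (chr5:90460620-90460869, plus strand) and of Fgb (chr3:83049864-83050113, minus strand) are given 5′ to 3′ from RefSeq on GRCm38.p6, while the counts were made on mm9. Capitals mark a match to GTTAAT, part of the site of the liver factor HNF1, searched on both strands. The letters were found in 5 of the 15 secreted protein genes with a promoter entry (Alb, Fga, Fgb, Serpina1a and Vtn) and in 6.43% of 32851 mouse promoters of the same length. A listed gene was counted if any of its entries matched, while the percentage is of single entries, so the measures are unlike.
Alb: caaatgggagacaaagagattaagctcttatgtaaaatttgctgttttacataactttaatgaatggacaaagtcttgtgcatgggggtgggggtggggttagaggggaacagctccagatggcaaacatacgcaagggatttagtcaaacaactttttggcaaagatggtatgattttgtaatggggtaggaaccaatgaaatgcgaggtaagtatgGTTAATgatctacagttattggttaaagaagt
Fgb: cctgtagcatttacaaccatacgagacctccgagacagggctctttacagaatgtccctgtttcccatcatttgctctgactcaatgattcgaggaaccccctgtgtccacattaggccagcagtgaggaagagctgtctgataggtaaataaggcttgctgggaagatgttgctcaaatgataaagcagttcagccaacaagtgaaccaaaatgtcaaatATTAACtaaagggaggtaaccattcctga
The match lies 32 to 27 bases before the start of Alb and 29 to 24 bases before that of Fgb. A match describes letters only and was not tested as a binding site.

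**Figure D3:**
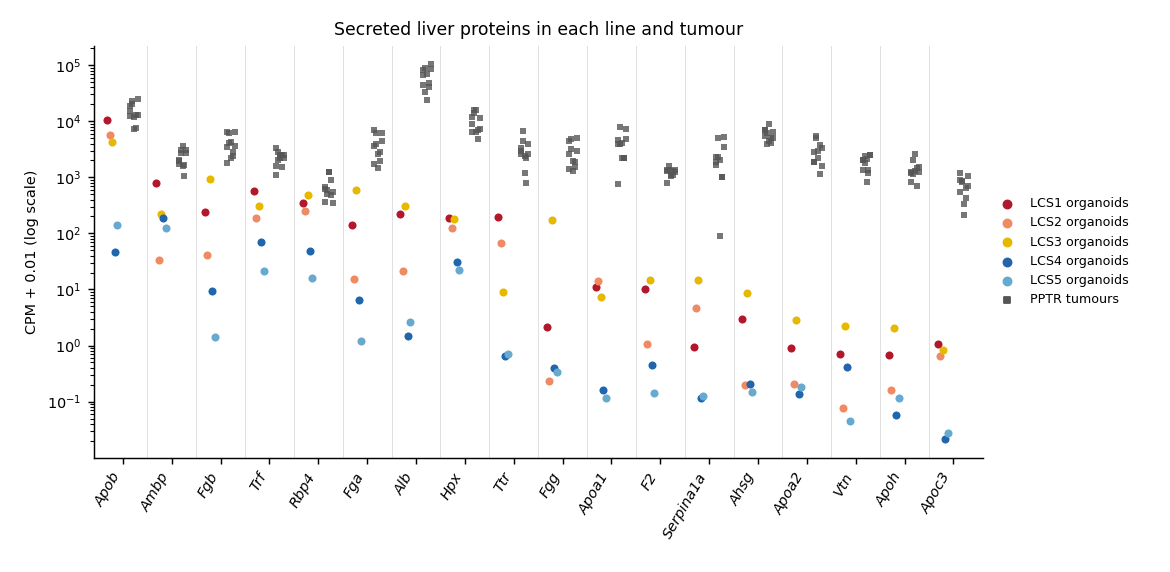
Levels of the 18 listed secreted proteins of hepatocytes in CPM on a log axis, ordered by the mean of the lines, with the 5 LCS lines as coloured dots on the left and the 11 PPTR tumours as grey squares on the right of each gene. For 16 genes every line lies below every tumour, and LCS4 and LCS5 are the lowest lines for most genes, as for Alb at 1.47 and 2.67 CPM.

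Liver transcription factors split. Of 16 such genes 6 rose and 9 fell (median -1.45). Hnf4a, the central regulator of hepatocyte identity, had 212, 151, 133, 77.0 and 66.3 CPM in LCS1 to LCS5, against 295, 444 and 596 CPM in the lowest, median and highest tumour, and fell by 1.74 ± 0.26 (adjusted p = 1.46e-05). Its groups did not overlap, and LCS4 and LCS5 were the lowest lines. Foxa3 fell by 4.01 ± 0.38, Cebpa by 2.41 ± 0.32, the bile acid and lipid regulator Nr5a2 by 3.78 ± 0.49 and Ppara, the regulator of fatty acid oxidation, by 6.96 ± 0.38. In the other direction Foxa2 had 28.7, 64.1, 53.8, 23.1 and 26.9 CPM in the lines and 9.69 to 25.3 CPM in the tumours, with LCS4 inside the range of the tumours. Foxa1 and Foxa2, which open chromatin in endoderm, rose by 2.39 ± 0.36 and 1.06 ± 0.23. The count of 6 that rose was 3 with epithelial scaling relative to the median gene and 2 among libraries without LQZ identifiers. Of 14 genes of bile acid synthesis and transport 12 fell and none rose (median -7.52), among them Cyp7a1, the enzyme that opens the classical route from cholesterol to bile acids, at 0 to 0.375 CPM in the lines and 0.834 to 69.8 CPM in the tumours. Abcc3, the exporter of the basolateral membrane, had 272 to 642 CPM in the lines and 105 to 355 CPM in the tumours (adjusted p = 0.0584).

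The 5 lines were not alike in what remained of the liver programme. A test of any difference among lines, with libraries as replicates, called 7157 of 16839 genes (42.5%). Without LCS5 it called 4716. All 18 secreted proteins and all 24 proliferation genes were among those called. The 10 named genes with the largest ratio between lines had LCS1 to LCS3 all above or all below LCS4 and LCS5. Abcc2, the canalicular exporter of conjugated bilirubin, had 676, 352, 368, 6.14 and 0.881 CPM in LCS1 to LCS5, against 150.5, 495 and 945 CPM in the lowest, median and highest tumour (-1.06 ± 0.88, adjusted p = 0.293). LCS1 to LCS3 lay within the range of the tumours, while LCS4 and LCS5 lay far under it. Mettl7b, a methyltransferase-like gene of hepatocytes, had 523, 217, 102, 1.61 and 0.335 CPM in the lines and 105 to 606 CPM in the tumours. The reverse order held for Duox2, a hydrogen peroxide generating oxidase, with 0.418, 2.16, 5.89, 298 and 466 CPM in LCS1 to LCS5 and 0 to 2.37 CPM in the tumours. Mmp7, a matrix protease of glandular epithelium, had 0.00774, 2.83, 10.6, 163 and 193 CPM and Ltf, which encodes lactoferrin, 0.967, 2.73, 89.9, 210.0 and 547 CPM in the lines, against 0.0396 to 14.7 and 0.119 to 36.3 CPM in the tumours. Both rose over all libraries (4.93 ± 1.24 and 5.13 ± 1.27), but among LQZ libraries alone Mmp7 stood at 0.25 and Ltf at -1.56, and neither was called. The 89.9 CPM of Ltf in LCS3 came from its library 4 at 413.1 CPM, with 0.0927 to 0.761 CPM in the other libraries of LCS3, all below the 0.967 CPM of LCS1. Mmp7 in LCS3 was likewise 0.771 CPM without library 4. LCS1 and LCS2 carry LQZ identifiers and LCS3 to LCS5 do not, and the part of the identifier set in these orders was not tested.

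Fetal and progenitor genes gave mixed counts. Of 10 hepatoblast and fetal liver genes 3 rose and 3 fell, near the 35.2% and 34.4% of all genes. Hmga2, a chromatin protein of embryonic cells, had 51.4, 48.2, 92.2, 65.1 and 111 CPM in LCS1 to LCS5, against 0, 0.214 and 1.34 CPM in the lowest, median and highest tumour, and rose by 7.81 ± 0.63 (adjusted p = 2.04e-08). The RNA-binding protein gene Igf2bp2 rose by 3.08 ± 0.36. Afp, the fetal counterpart of albumin, had 0.116 to 15.1 CPM in the lines and 0.611 to 36.2 CPM in the tumours (adjusted p = 0.252). The imprinted genes Igf2 and H19 fell by 7.75 ± 3.06 and 11.30 ± 2.74. Both falls drew on the same tumour, with 1703 and 4163 CPM, while the medians of the tumours were 0.317 and 35.6 CPM. Igf2 lost its call without any 1 of the 5 lines (-8.07 to -7.45), in DESeq2 (-0.27) and without tumours 3, 4 and 8 (-0.43), where H19 stood at -7.66. Of 11 stem and progenitor markers 6 rose and 3 fell. Cd44, a hyaluronan receptor, had 453 to 1143 CPM in the lines and 20.7 to 75.2 CPM in the tumours and rose by 4.01 ± 0.30. Prom1 had 3.15, 38.0, 65.2, 104 and 4.76 CPM in the lines and 0.269 to 79.0 CPM in the tumours and was not called (0.96 ± 0.99, adjusted p = 0.396). Aldh1a1, a retinaldehyde dehydrogenase abundant in hepatocytes, fell by 4.75 ± 0.68 and Ly6d, a surface protein gene, by 5.49 ± 0.78.

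Genes of gut and foregut epithelium rose in 7 of the 10 that were tested, and none fell (median 3.87). The sum of the list was 3948, 2436, 1350, 596 and 588 CPM in LCS1 to LCS5 and 79.7 to 469.9 CPM in the tumours. Cdx2, the master regulator of intestinal epithelium, had 52.4, 49.3, 34.5, 8.31 and 4.81 CPM in the lines and at most 0.0407 CPM in a tumour, with 1 count over all 11. The pooled level in lines was 12090 times that in tumours, with a 95% counting interval of 2170 to 477700. Cdh17, an intestinal cadherin, had 1880, 916, 594, 332 and 389 CPM in LCS1 to LCS5, against 1.95, 10.4 and 48.8 CPM in the lowest, median and highest tumour, and rose by 6.001 ± 0.68 (adjusted p = 8.35e-07). Lgals4, a gut lectin, rose by 6.07 ± 0.53. Pdx1, a factor of foregut and pancreas, had no count in any tumour and was at least 118.9-fold higher in the lines, at 0.212 to 3.34 CPM. Of 9 squamous genes tested 7 rose, among them the keratin gene Krt6a with 1.71 to 25.2 CPM in the lines and at most 0.0563 CPM in a tumour.

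Signalling responses were higher across several pathways. Of 14 immediate early genes, which are switched on within minutes by growth factors and by stress such as cell handling, 13 rose and none fell (median 3.48), 11 of them with every line above every tumour. Fosb had 68.6, 94.2, 79.8, 207 and 185 CPM in LCS1 to LCS5, against 0.126, 0.288 and 1.63 CPM in the lowest, median and highest tumour, and rose by 7.92 ± 0.49 (adjusted p = 1.46e-09). The libraries spread widely within a line, at 2.45, 1.26, 260.8 and 29.1 CPM in LCS1 and with library 4 of LCS3 at 2.26 CPM, against at most 1.77 CPM in a tumour on the same scale by library. Library 2 of LCS1 thus lay within the range of the tumours, and LCS1 was at 11.3 CPM without its highest library. The partner of Fosb in the AP-1 factor, Fos, had 81.2, 204, 261, 286 and 224 CPM in the lines and 1.26 to 14.5 CPM in the tumours (5.21 ± 0.48). Nr4a1 and Atf3, both rapidly induced transcription factors, rose by 5.07 ± 0.30 and 3.84 ± 0.39. How the cultures and tumours were handled before lysis is not given, and its part in these genes was not tested.

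Of 16 genes that report or restrain ERK signalling 15 rose and none fell (median 3.52). Their sum was 1435 to 2121 CPM in the lines and 161 to 399 CPM in the tumours, without overlap. Ereg, an EGF receptor ligand, had 409.6, 365, 173, 173 and 172 CPM in LCS1 to LCS5, against 0.286, 1.18 and 3.94 CPM in the lowest, median and highest tumour, and rose by 7.33 ± 0.42 (adjusted p = 8.39e-10). The ligand genes Hbegf and Areg rose by 5.36 ± 0.47 and 5.50 ± 1.01, Areg without a call among libraries lacking LQZ identifiers (3.26). Dusp4 and Dusp5, phosphatases that switch ERK off, rose by 4.74 ± 0.52 and 4.90 ± 0.53, and Epha2, an ephrin receptor, by 3.74 ± 0.21. Spry4, an inhibitor of receptor tyrosine kinase signalling, was the member not called (0.15 ± 0.50, adjusted p = 0.807).

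YAP target genes, which answer to cell spreading and stiffness, rose in 13 of 14 cases (median 2.06), or in 8 among libraries without LQZ identifiers. Ankrd1 had 115, 308, 454, 273 and 196 CPM in LCS1 to LCS5, against 0.248, 1.57 and 6.98 CPM in the lowest, median and highest tumour, and rose by 6.77 ± 0.70 (adjusted p = 2.88e-07). Cyr61, a secreted matrix protein, had 190.3 to 519 CPM in the lines and 6.8 to 28.7 CPM in the tumours (4.41 ± 0.31), and Yap1 itself 92.3 to 130.1 against 26.2 to 86.3 CPM (0.94 ± 0.22). Nt5e, the ecto-enzyme CD73, had 92.7, 75.5, 16.8, 0.327 and 1.08 CPM in the lines and 4.98 to 309 CPM in the tumours and was not called.

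**Figure D4:**
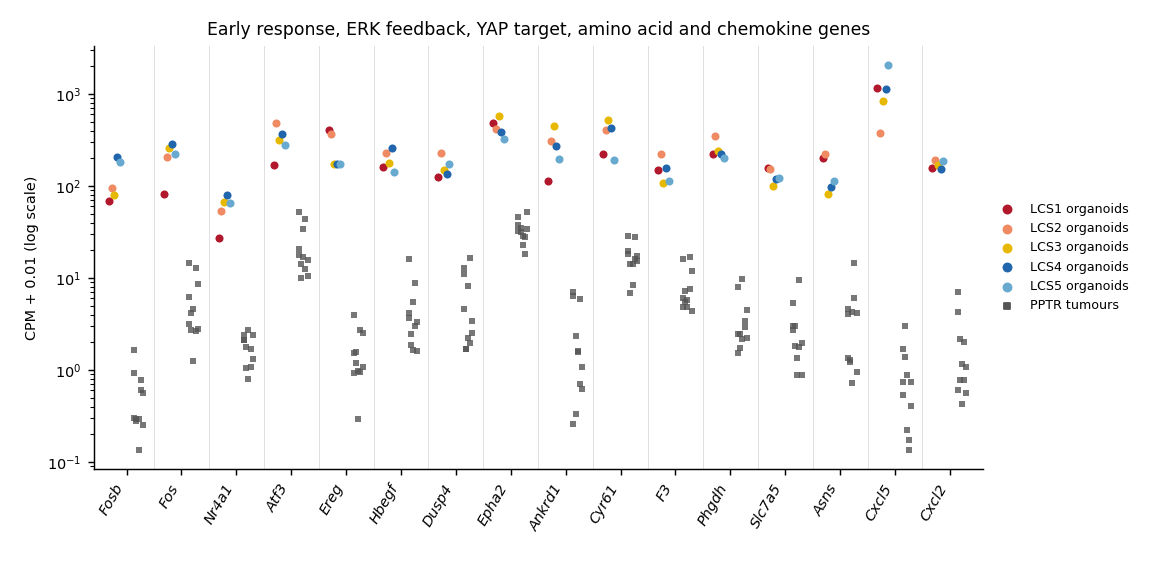
Levels in CPM on a log axis of 16 genes of immediate early, ERK, YAP, amino acid and chemokine responses, with the 5 LCS lines as coloured dots on the left and the 11 PPTR tumours as grey squares on the right of each gene. All lines lie above all tumours for each gene shown, for example 68.6 to 207 CPM of Fosb in the lines against at most 1.63 CPM in a tumour.

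Normal liver organoids (6 libraries), which are cultures of liver without a tumour label, expressed these genes too. Fosb had 68.6 to 207 CPM in LCS lines and 4.82 to 348 CPM in normal organoids, Ereg 172 to 409.6 against 54.3 to 335 CPM, and Ankrd1 115 to 454 against 83.8 to 733 CPM. Krt7 had 438 to 957 CPM in LCS lines and 741 to 1278 CPM in normal organoids. The ranges of the lines and normal organoids overlapped for all 4. LCS organoids against normal organoids gave -0.17 ± 0.73 for Fosb (adjusted p = 0.918) and 0.64 ± 0.51 for Ereg (adjusted p = 0.498). Neither passed the test, which does not show that the levels are alike.

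Notch signals pass between touching cells and steer the choice of duct fate in liver. Of 14 pathway genes 7 rose and 4 fell, and 3 rose among libraries without LQZ identifiers. The ligand genes Jag1 and Jag2 rose by 3.08 ± 0.30 and 3.47 ± 0.36; Jag1 had 347, 270.3, 183, 115 and 226 CPM in the lines and 9.36 to 45.5 CPM in the tumours. The receptor gene Notch2 rose by 1.55 ± 0.17, and Notch1, with 33.8 to 113 CPM in the lines and 27.0 to 112 CPM in the tumours, was not called (0.37 ± 0.28, adjusted p = 0.251). Notch4, made by endothelium, fell by 3.88 ± 0.74, and the ligand gene Dll4, also of endothelium, fell by 4.401 ± 0.65, with endothelial markers falling in 13 of 14 genes. Among the target genes Hes1 and Nrarp rose by 1.56 ± 0.30 and 1.62 ± 0.40, while Hey1 and Heyl fell by 2.55 ± 0.50 and 3.90 ± 0.61. The part of endothelial cells in these falls was not tested.

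Of 15 Wnt targets 5 were higher and 6 lower, near the 35.2% and 34.4% of all genes. Rnf43 and Znrf3, membrane ubiquitin ligases that dampen Wnt signalling, rose by 2.09 ± 0.30 and 2.04 ± 0.24. The pericentral hepatocyte genes Glul (glutamine synthetase) and Cyp2e1 fell by 3.67 ± 0.72 and 8.85 ± 1.79, and Nkd1, a feedback inhibitor, by 4.77 ± 0.55. Axin2, a general Wnt target, had 0.905, 1.2, 8.16, 12.3 and 6.08 CPM in LCS1 to LCS5 and 0.634 to 8.58 CPM in the tumours (adjusted p = 0.151). Without LCS3 the number of higher members was 3. Of 14 TGF-beta and BMP targets 4 rose and 3 fell, or 5 fell without LCS3 and 1 among libraries without LQZ identifiers. Over all libraries neither count exceeded the share over all genes. Pmepa1, an inhibitor of the pathway, rose by 2.92 ± 0.28, and Tgfbi, a matrix protein gene, fell by 5.33 ± 0.84.

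Cell cycle genes had a median nearer 0. Of 24 proliferation genes 7 rose and none fell (median 0.60). The share that rose was not above the 35.2% of all genes. Mcm7, a subunit of the replicative helicase, had 53.6, 95.5, 83.1, 42.1 and 55.1 CPM in LCS1 to LCS5, against 16.1, 19.2 and 29.6 CPM in the lowest, median and highest tumour, and rose by 1.68 ± 0.18 (adjusted p = 5.61e-07). Pcna, the sliding clamp of DNA polymerase, rose by 1.45 ± 0.23, or 0.79 and not called among libraries without LQZ identifiers. Mki67, the proliferation marker Ki-67, had 165, 159, 67.2, 34.5 and 24.6 CPM in the lines and 5.3, 41.6 and 83.7 CPM in the lowest, median and highest tumour and was not called (1.04 ± 0.54, adjusted p = 0.0929). LCS1 and LCS2 lay above every tumour for Mki67, and LCS4 and LCS5 below the median tumour. The count of higher members was 13 among LQZ libraries, 3 among the rest, 3 without LCS2 and 3 with epithelial scaling relative to the median gene.

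Among 20 genes often altered in liver and other cancers 16 rose and 1 fell (median 1.23), with 9 rises among libraries without LQZ identifiers and 8 with epithelial scaling relative to the median gene. The sum of the list was 2475 to 4146 CPM in the lines and 1121 to 1780 CPM in the tumours. Normal liver organoids had 3011 to 4365 CPM, so the higher sum is not particular to cultures with a tumour label. Erbb2, a receptor of the EGF receptor family, had 97.6, 52.1, 75.6, 101 and 74.9 CPM in LCS1 to LCS5, against 0.715, 1.75 and 4.57 CPM in the lowest, median and highest tumour, and rose by 5.34 ± 0.30 (adjusted p = 8.10e-10). Myc had 77.9, 125, 102, 90.4 and 76.0 CPM in the lines and 3.87 to 17.9 CPM in the tumours and rose by 3.36 ± 0.32. Every line lay above every tumour for both. Ccnd1, which encodes cyclin D1, also rose, with 336 to 598 CPM in the lines and 43.2 to 295 CPM in the tumours (adjusted p = 6.10e-04). Cdkn2a, the locus of the inhibitors p16 and p19ARF, had 0, 7.22, 53.4, 4.88 and 9.97 CPM in LCS1 to LCS5 and 0.185 to 1.95 CPM in the tumours. Its neighbour Cdkn2b had 0, 6.01, 29.2, 33.1 and 62.1 CPM in the lines. LCS1 had no count of either gene, while the other 4 lines lay above all tumours for Cdkn2a. Ccne1, which encodes cyclin E1, was not called (-0.61 ± 0.53, adjusted p = 0.322).

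Of 18 p53 target genes 12 rose and 3 fell (median 1.56). Their sum was 1259 to 3088 CPM in the lines and 545 to 1239 CPM in the tumours. In normal liver organoids it was 950 to 4551 CPM, which overlaps the lines. Pmaip1, the cell death gene Noxa, had 78.7, 169, 87.6, 193 and 223 CPM in LCS1 to LCS5, against 2.57, 6.21 and 34.3 CPM in the lowest, median and highest tumour, and rose by 4.03 ± 0.49 (adjusted p = 1.70e-06). Mdm2, the ubiquitin ligase that degrades p53, had 315, 179, 76.8, 170.1 and 222 CPM in the lines and 34.8 to 89.8 CPM in the tumours (2.02 ± 0.24), and Trp53 itself 23.4, 20.2, 12.5, 40.9 and 31.0 against 4.07 to 13.3 CPM (1.67 ± 0.26). LCS3 was the lowest line for both and overlapped the tumours. Cdkn1a, the inhibitor p21, was at 27.3 to 97.2 CPM in the lines and 10.3 to 100.2 CPM in the tumours and was not called (adjusted p = 0.0524). The death receptor gene Fas fell by 2.79 ± 0.36.

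In metabolism the amino acid response was higher, with 14 of 16 genes up and 1 down (median 2.03), or 8 up among libraries without LQZ identifiers. These genes follow ATF4 when amino acids are short. Phgdh, the first enzyme of serine synthesis, had 222, 354, 242, 224 and 201 CPM in LCS1 to LCS5, against 1.53, 2.48 and 9.66 CPM in the lowest, median and highest tumour, and rose by 6.05 ± 0.41 (adjusted p = 3.71e-09). Asns, asparagine synthetase, had 199.7, 225, 82.4, 96.4 and 113 CPM in the lines and 0.715 to 14.7 CPM in the tumours (5.18 ± 0.57). Slc7a5, an importer of large neutral amino acids, rose by 5.49 ± 0.44, and Slc7a11, the cystine importer, had 380.3, 287, 180.2, 377 and 579 CPM against 1.76 to 112 CPM (3.48 ± 0.78). No line overlapped a tumour for these 4 genes. Atf4 rose by 1.30 ± 0.18 and Atf5 fell by 1.07 ± 0.30.

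The promoters of Asns (chr6:7693210-7693459, minus strand) and Slc7a11 (chr3:50443614-50443863, minus strand) are shown as those of risers in this group, 250 bases before the start, 5′ to 3′, from RefSeq on GRCm38.p6. Capitals mark matches to TGATGNAA, the composite element of C/EBP and ATF factors, searched on both strands. It was found in 4 of 15 amino acid response genes with a promoter entry (Asns, Chac1, Slc7a11 and Vldlr) and in 3.45% of 32851 promoters. Here too, and for the element below, a gene counted if any of its entries matched, while the percentage is of single entries.
Asns: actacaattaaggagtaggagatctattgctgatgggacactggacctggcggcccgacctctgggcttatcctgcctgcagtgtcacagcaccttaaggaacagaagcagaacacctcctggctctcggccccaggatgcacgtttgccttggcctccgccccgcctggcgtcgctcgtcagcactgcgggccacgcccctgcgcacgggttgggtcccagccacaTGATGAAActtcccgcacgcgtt
Slc7a11: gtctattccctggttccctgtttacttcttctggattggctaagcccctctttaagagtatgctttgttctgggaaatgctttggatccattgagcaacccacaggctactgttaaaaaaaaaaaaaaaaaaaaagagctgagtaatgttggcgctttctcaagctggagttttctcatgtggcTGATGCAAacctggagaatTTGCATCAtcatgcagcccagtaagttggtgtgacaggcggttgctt
The match in Asns lies 23 to 16 bases before the start. Slc7a11 has 2 matches, at 66 to 59 and at 47 to 40 bases. Among 11 immediate early genes with an entry, the cyclic AMP response element TGACGTCA was found in Dusp1 alone, against 1.55% of all promoters.

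Lipid making and storing genes went the other way. Of 15 fatty acid synthesis genes 12 fell and none rose (median -2.64), or 7 fell among libraries without LQZ identifiers. Scd1, which puts the double bond into stearate, had 673, 471, 318, 71.8 and 40.7 CPM in LCS1 to LCS5, against 7158, 19230 and 45680 CPM in the lowest, median and highest tumour, and fell by 6.17 ± 0.83 (adjusted p = 5.38e-06). The isoform gene Scd2 had 683 to 1227 CPM in the lines and 108 to 1331 CPM in the tumours and was not called, nor was the regulator Srebf1 (-0.29 ± 0.31). Of 16 genes of lipid droplets and fat storage 14 fell and Pnpla2, a lipase, rose. Cidec and Plin2, coat proteins of lipid droplets, fell by 5.20 ± 0.97 and 3.51 ± 0.37, and Dgat2, the last step of triglyceride synthesis, by 5.13 ± 0.30. Of 23 cholesterol genes 13 fell and 3 rose, but 8 fell among LQZ libraries, 3 among the rest and 7 with epithelial scaling relative to the median gene. Srebf2, the regulator of the pathway, was one that rose, with 183 to 400.3 CPM in the lines and 25.2 to 49.8 CPM in the tumours (3.04 ± 0.18, adjusted p = 1.30e-09).

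Glycolysis and hypoxia genes gave counts that hung on the identifier set. Over all libraries 7 of 19 rose and 3 fell, among LQZ libraries 11 rose, and among the rest none rose and 8 fell. Hk1, the hexokinase of most tissues other than hepatocytes, had 258, 214, 141, 114 and 96.3 CPM in LCS1 to LCS5 and at most 77.3 CPM in a tumour (3.53 ± 0.54), with a fold change of 1.89 and no call among libraries without LQZ identifiers. The glucose transporter gene Slc2a1 had 691, 464, 184, 165 and 184 CPM in the lines and 5.26 to 179.7 CPM in the tumours. LCS1 and LCS2 were the highest lines for both. Ldha had 1244, 982, 434, 175 and 209.5 CPM in the lines and 648 to 1295 CPM in the tumours and was not called (-0.74 ± 0.37, adjusted p = 0.0853). Of 16 oxidative stress genes 3 rose and 6 fell, and of 14 unfolded protein response genes 1 rose and 3 fell (medians -0.26 and -0.21). Phase II detoxification genes fell in 15 of 16 cases, for example Gstm1, a glutathione transferase, by 4.39 ± 0.61.

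Genes encoded by mitochondrial DNA rose in 9 of 13 cases (median 1.14), or 5 with the identifier set as a term in the fit, 2 among LQZ libraries alone and 4 with epithelial scaling relative to the median gene. These genes took 2.65% to 19.6% of gene counts per library in the organoids and 1.65% to 6.85% in the tumours. mt-Cytb, cytochrome b, had 1103, 553, 4202, 2466 and 2964 CPM in LCS1 to LCS5 and 339.8, 445 and 950.5 CPM in the lowest, median and highest tumour (2.27 ± 0.36, adjusted p = 2.93e-05). LCS2 lay within the range of the tumours and the other 4 lines above it. The part of RNA quality and of library preparation in this was not tested.

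Antigen presentation was lower in culture. All 7 MHC class II genes and 10 of 11 class I genes fell, with medians of -6.23 and -1.52, and class I falls numbered 4 with epithelial scaling relative to the median gene. B2m, the light chain of class I, had 247, 259, 179, 168 and 144 CPM in LCS1 to LCS5, against 1264, 1698 and 2880 CPM in the lowest, median and highest tumour, and fell by 3.16 ± 0.27 (adjusted p = 3.48e-08). Psmb9, a subunit of the immunoproteasome, fell by 4.71 ± 0.44, and H2-Aa, a class II chain of antigen-presenting cells, had 0 to 0.414 CPM in the lines and 32.5 to 726 CPM in the tumours. Interferon response genes fell in 13 of 16 cases (median -2.13), and Irf1 rose by 0.99 ± 0.24. All 16 macrophage markers moved down with these genes, at sums of 8.85 to 40.7 CPM in the lines against 432 to 2749 CPM, and their part in the falls was not tested.

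Of 15 chemokines and cytokines 9 rose and 4 fell. Cxcl5, a neutrophil attractant, had 1170, 376, 829, 1138 and 2065 CPM in LCS1 to LCS5, against 0.127, 0.729 and 3.01 CPM in the lowest, median and highest tumour, and rose by 10.30 ± 0.66 (adjusted p = 2.23e-09). Cxcl1 and Cxcl2, of the same family, rose by 4.28 ± 0.29 and 6.52 ± 0.57, the cytokine genes Tnf and Lif by 4.80 ± 0.47 and 3.54 ± 0.29 and the macrophage growth factor gene Csf1 by 2.81 ± 0.34. All 9 that rose did so without overlap. Cxcl12, a stromal chemokine, fell by 8.39 ± 0.73, and the interferon-induced Cxcl9 by 6.78 ± 1.18.

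Of 16 genes of matrix and basement membrane 6 rose and 6 fell, or 3 fell among libraries without LQZ identifiers. Over all libraries both counts were near the 35.2% and 34.4% of all genes. Lama5, a laminin gene, had 1292, 1125, 1576, 1402 and 2411 CPM in LCS1 to LCS5 against 21.0 to 138 CPM in the tumours and rose by 4.99 ± 0.44 (adjusted p = 4.94e-08). No line overlapped a tumour. Agrn, which encodes agrin, rose by 3.89 ± 0.28. The collagen IV genes Col4a1 and Col4a2, found in vessel walls, fell by 2.61 ± 0.72 and 1.64 ± 0.71 and the collagen cross-linker gene Lox fell by 6.996 ± 1.22. Of 16 matrix proteases and inhibitors 7 rose and 4 fell, or 4 and 2 among libraries without LQZ identifiers. Plaur, the urokinase receptor, rose by 5.08 ± 0.55 and Timp2 and Timp3, inhibitors of matrix proteases, by 3.82 ± 0.27 and 4.05 ± 0.46, whereas Mmp2, a fibroblast gelatinase, fell by 7.13 ± 0.90. Of 11 genes tested of epithelial to mesenchymal transition 1 rose (Ocln, a tight junction gene) and 5 fell. Vim, the mesenchymal filament vimentin, had 220.4, 134, 91.5, 0.467 and 1.85 CPM in the lines and 36.7, 85.3 and 454 CPM in the lowest, median and highest tumour and was not called (-0.36 ± 0.88, adjusted p = 0.73). LCS1 to LCS3 lay within the range of the tumours and LCS4 and LCS5 near 0.

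Over all genes the largest rises included several of secretory epithelium. Muc5b, a gel-forming mucin, had 601, 293, 45.9, 428 and 28.4 CPM in LCS1 to LCS5 and at most 0.213 CPM in a tumour, and rose by 12.72 ± 0.87 (adjusted p = 3.94e-09). Library 3 carried LCS4, at 1075 CPM against 0.661 and 2.37 CPM in its other libraries, and library 2 was the highest of LCS1, at 1862 CPM against 153.8 to 290 CPM. Clca4, a chloride channel accessory gene, rose by 12.41 ± 0.69, the water channel gene Aqp5 by 11.70 ± 0.76, and Gcnt3, which branches mucin sugars, by 10.87 ± 0.83. Cdh16, a cadherin of tubular epithelium, rose by 10.32 ± 0.91, with 229, 222, 3.54, 239 and 191 CPM in the lines. The developmental factors Pax9 and Pax2 had 2 and 3 counts over the tumours, and the pooled level in lines was 3129 times (95% counting interval 865.9 to 25840) and 1753 times (599.5 to 8500) that in tumours. The largest falls included hepatocyte and endothelial genes. Car3, a carbonic anhydrase, had 0.00762 to 0.402 CPM in the lines and 34.6 to 3983 CPM in the tumours (-13.70 ± 1.57), and the coagulation gene Cpb2 0 to 0.212 against 173 to 577 CPM (-12.41 ± 0.94). Fabp1, the fatty acid binding protein of liver, and Fabp4, that of adipocytes and capillaries, fell by 12.24 ± 1.38 and 12.36 ± 1.02. Esm1, an endothelial tip cell gene, had 3 counts over all lines, and its pooled level in tumours was 15160 times that in lines (5187 to 73520).

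Muc5b and Cdh16 also differed from normal organoids. Muc5b had 28.4 to 601 CPM in LCS lines and 0.0978 to 4.92 CPM in normal organoids (6.62 ± 0.99, adjusted p = 0.00415). LCS4 lay above the normal organoids through its library 3 and was at 1.55 CPM, within their range, without it. Leaving out any 1 library kept the call, at 6.09 to 6.82. Cdh16 had 3.54 to 239 CPM in LCS lines and 0.978 to 7.2 CPM in normal organoids (5.81 ± 0.87, adjusted p = 0.00435), with LCS3 inside the range of the normal organoids. Cxcl5 had 376 to 2065 CPM in LCS lines and 992 to 2099 CPM in normal organoids and did not pass (-0.67 ± 0.37, adjusted p = 0.317).

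The tumour's own programme was traced through genes that set PPTR tumours apart from normal liver (6 libraries). At an adjusted p under 0.05, 2647 of 15305 genes (17.3%) were higher and 2116 (13.8%) lower in tumours than in liver, 31.1% in either direction. These calls use the same tumours as the comparison with LCS organoids, so the 2 comparisons are not independent. Livers also had ribosomal-repeat shares of 10.7% to 25.8%, and when the fit took that share into account, the counts came to 1117 higher and 734 lower.

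A set of 496 genes was called higher in tumours than in liver, with every tumour above every liver and a mean of at least 10 CPM in tumours. Names of predicted genes, clones, pseudogenes and some sex-linked genes were left out of it. The median of the 5 lines lay within the range of the tumours for 217 of them (43.8%), above it for 129 (26.0%) and below it for 150 (30.2%). Over all genes tested, without these filters on call, level and name, the shares were 39.1%, 30.5% and 30.4%. They lie near the shares for the genes that mark the tumours, but the sets were not matched in level. Of the 20 with the largest change from liver, a selection made after their values were seen, 11 were within, 2 above and 7 below.

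Tmc5, a channel-like membrane protein gene, had 12.3, 6.58, 17.8, 11.7 and 9.84 CPM in LCS1 to LCS5, 5.21, 17.6 and 44.8 CPM in the lowest, median and highest tumour and at most 0.113 CPM in a liver. The lines lay within the range of the tumours (-0.74 ± 0.43, adjusted p = 0.137), as they did for Mab21l3, with 18.6, 14.4, 35.3, 30.6 and 59.2 CPM against 10.6 to 83.7 CPM (-0.12 ± 0.49, adjusted p = 0.838). Sdcbp2, a scaffold protein gene, had 13.4 to 30.9 CPM in the lines and 6.92 to 79.0 CPM in the tumours. Myo5c, a myosin of secretory epithelium, had 272, 296, 188, 241 and 187 CPM in the lines and 1.91 to 100.2 CPM in the tumours and rose further (3.36 ± 0.66, adjusted p = 2.41e-04). Ephb2, an ephrin receptor, had 0.255, 1.35, 4.55, 25.7 and 37.8 CPM in LCS1 to LCS5 and 3.84, 52.2 and 117 CPM in the lowest, median and highest tumour (-1.99 ± 0.86, adjusted p = 0.0486). LCS3 to LCS5 lay within the range of the tumours for Ephb2, and LCS1 and LCS2 below it, while LCS3 was at 0.938 CPM without its library 4. Normal liver organoids had 3.77 to 139 CPM of Tmc5, 25.8 to 195 CPM of Mab21l3 and 15.1 to 52.7 CPM of Sdcbp2. They had 155 to 330 CPM of Myo5c and 19.4 to 66.8 CPM of Ephb2. The ranges of lines and normal organoids overlapped for each of these genes, so their levels in the lines are not particular to cultures with a tumour label.

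Below every tumour in all lines were Sorcs2, a sorting receptor, with 0.379 to 2.46 CPM against 6.55 to 78.4 CPM in the tumours (-5.05 ± 0.59, adjusted p = 1.23e-06), and Wisp2, a secreted protein of stromal cells, with 0.0264 to 0.416 against 4.51 to 106 CPM (-7.56 ± 1.08). Livers had 0.113 to 0.609 CPM of Sorcs2 and 0.152 to 1.65 CPM of Wisp2. For Sorcs2, LCS2 to LCS5 thus still lay above every liver. Fibroblast markers moved down with Wisp2, and their part was not tested. The lipid droplet gene Cidec had 6.2, 7.1, 1.48, 0.303 and 0.0881 CPM in LCS1 to LCS5, 17.1 to 235 CPM in the tumours and at most 2.26 CPM in a liver. Psapl1 and Apln had medians of 0.437 and 2.02 CPM in the tumours and highest values of 145.0 and 191 CPM.

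**Figure D5:**
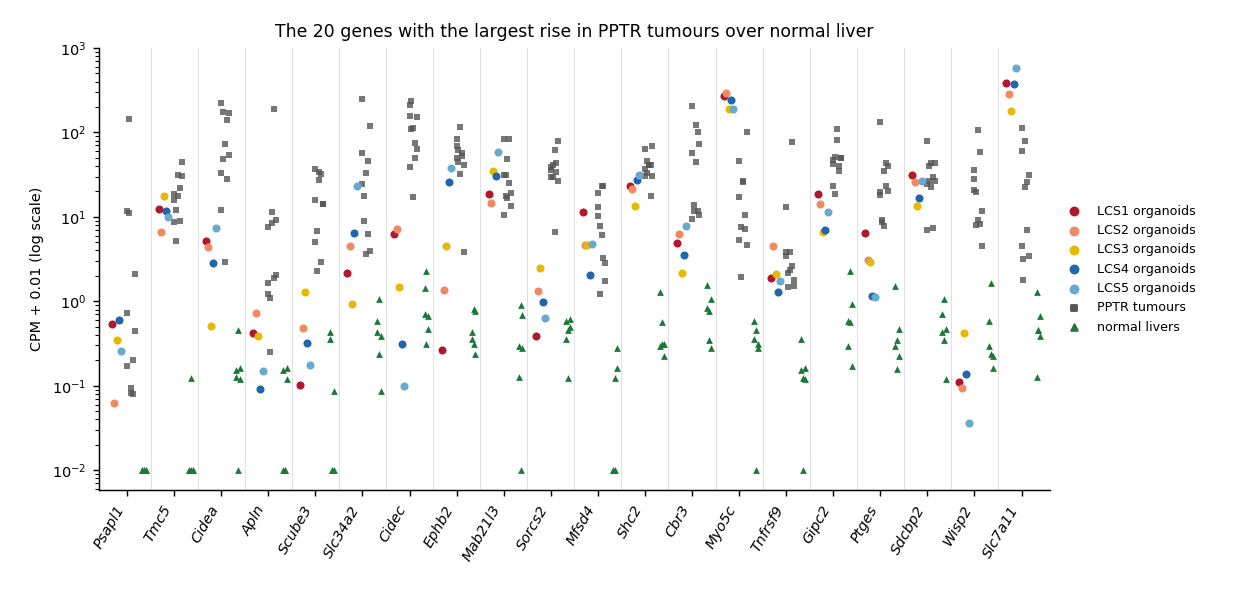
Levels in CPM on a log axis of the 20 genes with the largest change between PPTR tumours and normal liver, among the 496 set out in the text. LCS lines are coloured dots, PPTR tumours grey squares and normal livers green triangles, from left to right. The median of the lines lies within the range of the tumours for 11 genes, above it for Myo5c and Slc7a11, and below it for 7, among them Sorcs2, Wisp2 and Cidec.

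A stricter count asked for levels that matched. Of 1323 genes over 2-fold higher in tumours than in liver, 113 (8.54%) had a 95% interval of the organoid to tumour fold change that lay within 2-fold either way, against 3230 of 13890 genes (23.3%) overall. The 1323 genes were chosen for high levels in these same tumours, and a wide spread between tumours widens the interval. The shares therefore do not show whether tumour genes matched less often than others. The 10 with the highest level in tumours included genes of redox and carbohydrate metabolism. Gclc, the rate-limiting enzyme of glutathione synthesis, had 597, 522, 344, 333 and 1030 CPM in LCS1 to LCS5, 243, 602 and 1064 CPM in the lowest, median and highest tumour and 171 to 396 CPM in livers (-0.15 ± 0.34 for organoids over tumours, adjusted p = 0.715). Tkt, transketolase of the pentose phosphate pathway, had 264 to 579 CPM in the lines and 168 to 964 CPM in the tumours (-0.21 ± 0.33), and Txnrd1, thioredoxin reductase, 167 to 411 against 219.9 to 625 CPM (-0.30 ± 0.28). Cxadr, a junction protein and virus receptor, had 560.5, 564, 319, 445 and 530.1 CPM in the lines and 225 to 905 CPM in the tumours (0.03 ± 0.26). Slc39a4, a zinc importer, had 328, 253, 301, 299 and 261 CPM in LCS1 to LCS5, 121 to 432 CPM in the tumours and 18.9 to 45.1 CPM in livers, a level that in tumours was 3.04 ± 0.36 over liver and in organoids 0.28 ± 0.32 over tumours. For all 5 genes the lines overlapped the tumours. Rtn4, Mlec, Tubb4b, Arpc1b and Tubb5 completed the 10, and Tubb5, a tubulin, was called higher (0.46 ± 0.16, adjusted p = 0.0176), but not without LCS2 (0.37).

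A comparison that shares no library with the tumours asked whether LCS organoids stood apart from normal organoids as tumours did from liver. It called 505 of 15563 genes higher (3.24%) and 290 lower (1.86%), 5.11% in either direction. The counts hung on single lines and on the tool, with 200 and 121 without LCS1, 203 and 122 without LCS2, 275 and 147 without LCS3, 817 and 437 without LCS5, and 1399 and 994 in DESeq2. Of 13511 genes tested in both, 115 were higher in both (0.851%), which is 4.82% of the 2388 higher in tumours, against 3.51% of all genes, and 24.3% of the 474 higher in LCS organoids, against 17.7% of all genes. Lower in both were 47 genes (0.348%), 2.65% of 1774 and 22.5% of 209, against 1.55% and 13.1%. Of the genes higher in tumours 29 were lower in LCS organoids, 1.21% against 1.55% of all genes. Of those lower in tumours 73 were higher in LCS organoids, more than the 47 lower in both, and 4.12% against 3.51% of all genes. Without LCS1, LCS2, LCS3 or LCS5 the 115 became 40, 34, 55 and 186, and without LCS1 or LCS2 the 47 became 28.

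The genes higher in both included Spp1, at means of 3071 CPM in LCS organoids and 942.5 CPM in normal organoids (1.66 ± 0.44, adjusted p = 0.0486), and 2398 CPM in tumours and 80.5 CPM in liver (4.73 ± 0.73, adjusted p = 1.98e-04). Scd1 was 3.50 ± 0.64 over normal organoids (adjusted p = 0.0116) and 2.46 ± 0.58 over liver, although LCS organoids stood far below tumours. The call of Spp1 over normal organoids was kept in 13 of 19 fits that left out 1 library each. These genes and the next were chosen after their values were seen. Aldoa, Gapdh and Pkm2 of glycolysis were higher in both, at 1.29, 0.94 and 1.05 over normal organoids and 1.15, 1.38 and 1.92 over liver. Notum, a Wnt-inactivating enzyme, was lower in both, at -3.36 over normal organoids and -1.999 over liver.

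A library trait moved with this last comparison and, in the same direction but only in part, with tumours against liver. The non-coding RNA RNaseP_nuc had 75.71 to 2169 CPM in the libraries of LCS organoids and at most 0.3995 CPM in those of normal organoids. It had 203 to 709.3 CPM in PPTR tumours and 0.109 to 449.5 CPM in normal livers. Of the counts of Rpl34 and its copy, 71.7% to 87.1% went to Rpl34-ps1 in LCS organoids and 7.14% to 8.70% in normal organoids. In PPTR tumours that share was 81.3% to 86.6%, against 7.80% to 80.3% in normal livers. The trait and the difference between LCS and normal organoids cannot be told apart. Between tumours and livers the trait did not split the groups fully, as RNaseP_nuc reached 449.5 CPM in a liver against 203 CPM in the lowest tumour. The part of the trait in the genes called the same way in both comparisons was not tested, and Rpl34 itself was among those lower in both.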

How the data were processed

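RNA was sequenced from 19 libraries of LCS organoids and 11 PPTR primary tumours. The authors deposited, for each library, whole read counts per gene symbol. The aligners BWA and STAR, the counter HTSeq and the build mm9 are named, per the submitters' processing notes. Versions and settings: not given in the sources used here. Left out were the 5 entries that name no gene. Reads in no annotated gene had a share of 22.6% to 47.7% in LCS libraries and 9.78% to 45.7% in PPTR libraries.

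Counts were summed over the libraries of each LCS line. Genes were kept by edgeR's filterByExpr (minimum count 10, minimum total 15, large group 10, proportion 0.7), scaled by TMM and tested with edgeR 4.0.16 in R 4.3.3 by the two-sided quasi-likelihood F test with Benjamini-Hochberg adjustment over all genes tested. Errors of log2 fold changes are standard errors. CPM values share 1 set of TMM factors over all groups shown. The fit holds the 5 lines and 11 tumours only. Differences among lines used libraries as replicates, and tumour against liver and LCS against normal organoids were fitted on their own samples. Alternatives used DESeq2 1.42.0, other scalings and filters, left-out lines or libraries and the 2 identifier sets. The scripts were tested on simulated data with known changes. Ratios against 1 to 3 counts are of pooled counts with 95% intervals, and ratios against 0 use a floor of 3 counts over the group; both cover counting error only.

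Named genes are the 12 largest changes in each direction among called genes with a mean of at least 10 CPM and groups that do not overlap, up to 4 called members per list with at least 5 CPM (other members may be named where their list is described), 10 kept genes and 10 genes that differ among lines. The members and the gene lists were chosen with earlier results of these data known. Reads of near-identical copies (Mup, Hba and Hbb, Sprr2a and Cyp2c genes) could be split or lost by the counting, so their values are uncertain. Promoter sequences are from RefSeq on GRCm38.p6.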

Additional observations from a re-analysis of the deposited data

Results flagged for a closer look

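The values of the 5 lines were searched for single lines that stand apart in each of 198 named genes, and chance alone marks about 1 in 20 such groups. In 6 genes, fewer than 1 in 20 of the 198, the gap to the nearest line, divided by the whole range, passed Dixon's limit for 5 samples. A minimum log2 range of 1 was also set. These flags thus need not be more than chance alone would give. LCS3 was low for Cdh16, at 3.54 CPM against 191 to 239 CPM in the other lines, and high for Cyp2e1, at 2.49 CPM against 0.0914 to 0.186 CPM, through its library 1 at 6.18 CPM, with 0.0752 to 0.954 CPM in its other libraries. LCS1 was low for Fos, at 81.2 CPM against 204 to 286 CPM in the others, and still above every tumour. LCS5 was high for Hba-a1, at 3.19 CPM against 0.0234 to 0.375 CPM, for Hbb-b2, at 1.42 CPM against at most 0.163 CPM, and for Mmp12, at 2.97 CPM against 0.0934 to 0.371 CPM.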

How the results depend on the processing

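Of 198 named genes, 165 kept their direction and call under all 21 settings, which take epithelial scaling only relative to the median gene, and 9 pairs of gene and setting gave no value. Scaling to the epithelial markers left 254 genes higher and 15641 lower, or 3462 and 3386 relative to the median gene, and the test against a 2-fold change called 3156 and 3497. Leaving out 1 line in turn gave 5650 to 5813 genes higher and 5538 to 5747 lower. Leaving out 1 LCS library in turn gave 5860 to 5978 higher and 5770 to 5873 lower, and 414 to 520 and 242 to 311 against normal organoids. The difference among lines held 4716 to 6573 genes (4716 without LCS5). LCS against normal organoids gave 200 to 817 higher and 121 to 437 lower (200 and 121 without LCS1, 203 and 122 without LCS2, 275 and 147 without LCS3, 817 and 437 without LCS5), and 1399 and 994 in DESeq2. Genes called the same way in tumours against liver numbered 34 to 186 higher and 28 to 52 lower. PPTR against liver gave 1117 higher and 734 lower with a covariate for ribosomal repeats. Blnk reversed to -0.043 with 1 library per line, and Ltf and Scara3 reversed to -1.56 and -0.23 among LQZ libraries. For these changes the cause was not tested. Measuring from the median gene under epithelial scaling, and leaving out single libraries, PPTR tumours 3, 4 and 8 or LCS libraries over 5% ribosomal repeat, were chosen after seeing the data. The fit on libraries without LQZ identifiers, with 3 lines and 3 tumours, lost the most calls of named genes (23), and fewer samples were in it. No paired analysis was possible because no label ties a line to a tumour.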
